A study of Mus musculus with 3 samples.

Results

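The Pitx1 locus was examined in a chromatin immunoprecipitation with sequencing (ChIP-seq) study of Tbx4 and Hoxc10 in hindlimb buds. It was taken as the stretch of mouse chromosome 13 from 200 kb outside Pitx1, across H2afy (also named Macroh2a1), to the far end of Neurog1, chr13:55625044-56252180 on build mm10. The rule for the locus read through Neurog1 to the far end of H2afy. The gene table places H2afy between Pitx1 and Neurog1, so the stretch was closed with Neurog1. Ended at the far end of H2afy instead, it would hold 2 Tbx4 sites and 1 Hoxc10 site, without its highest Tbx4 site. Members were all summits of both factors inside these 627.1 kb. There were 4 of them among 6394 listed sites, 3 of the 4780 Tbx4 sites and 1 of the 1614 Hoxc10 sites.

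Hindlimb buds came from mouse embryos of the CD1 strain, wild type, at stage e11.5. Tbx4 was pulled down with a homemade antibody and Hoxc10 with an Abcam antibody, 1 sample each. A Hoxc10 sample made with a Santa Cruz antibody was not analysed here. Still, the name of the Hoxc10 list may mean that only Abcam sites near Santa Cruz peaks were kept, which would bear on every Hoxc10 count below. Neither factor had a replicate, and a control library was not used here, so no difference below has a replicate check. A summit is the 1 bp position where a peak is highest, and its score is the authors' own value on a −log10 scale from the peak caller MACS2, used only within its own list. The sources used here do not say whether p-values or q-values underlie it. The lists hold no counts of reads, so the depth is unknown, and they carry no expression values, so the labelled tissue could not be checked against marker genes.

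Pitx1 encodes a paired-type homeodomain factor that is expressed in the hindlimb and not in the forelimb, where it acts upstream of Tbx4 and shapes hindlimb muscle, tendon and bone. Pitx1 is known to be controlled over long distances by several enhancers spread through its gene-poor surroundings. One of them, the limb enhancer Pen, is active in both limbs, lies on the far side of H2afy from Pitx1, and contacts Pitx1 in the hindlimb. Deletions in the human counterpart of this stretch that bring Pen closer to PITX1 cause Liebenberg syndrome, in which arms take on features of legs. H2afy encodes the histone variant macroH2A1, and Neurog1 encodes a basic helix-loop-helix factor that commits cells of sensory ganglia to a neuronal fate. The coordinates of Pen and of the other known enhancers were not used here, so no summit below is assigned to one of them.

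In the annotation, 10 protein-coding genes, 5 long noncoding RNA genes and 2 pseudogenes had bases in the locus. Caml, Ddx46, B230219D22Rik, Txndc15, Pcbd2 and Catsper3 stand close together on the low-coordinate side of Pitx1. Pitx1 itself occupies positions 55825044 to 55836190, only 1.0 kb from Catsper3. Beyond its other end follow 237.4 kb without a protein-coding gene, holding the noncoding gene Gm31542 and the pseudogene Gm47072. Then come H2afy at 56073622 to 56135626, a gap of 38.1 kb, Tifab, a gap of 71.5 kb, and Neurog1 at 56250478 to 56252180. Pitx1 and Neurog1 lie 414.3 kb apart.

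**Figure D1:**
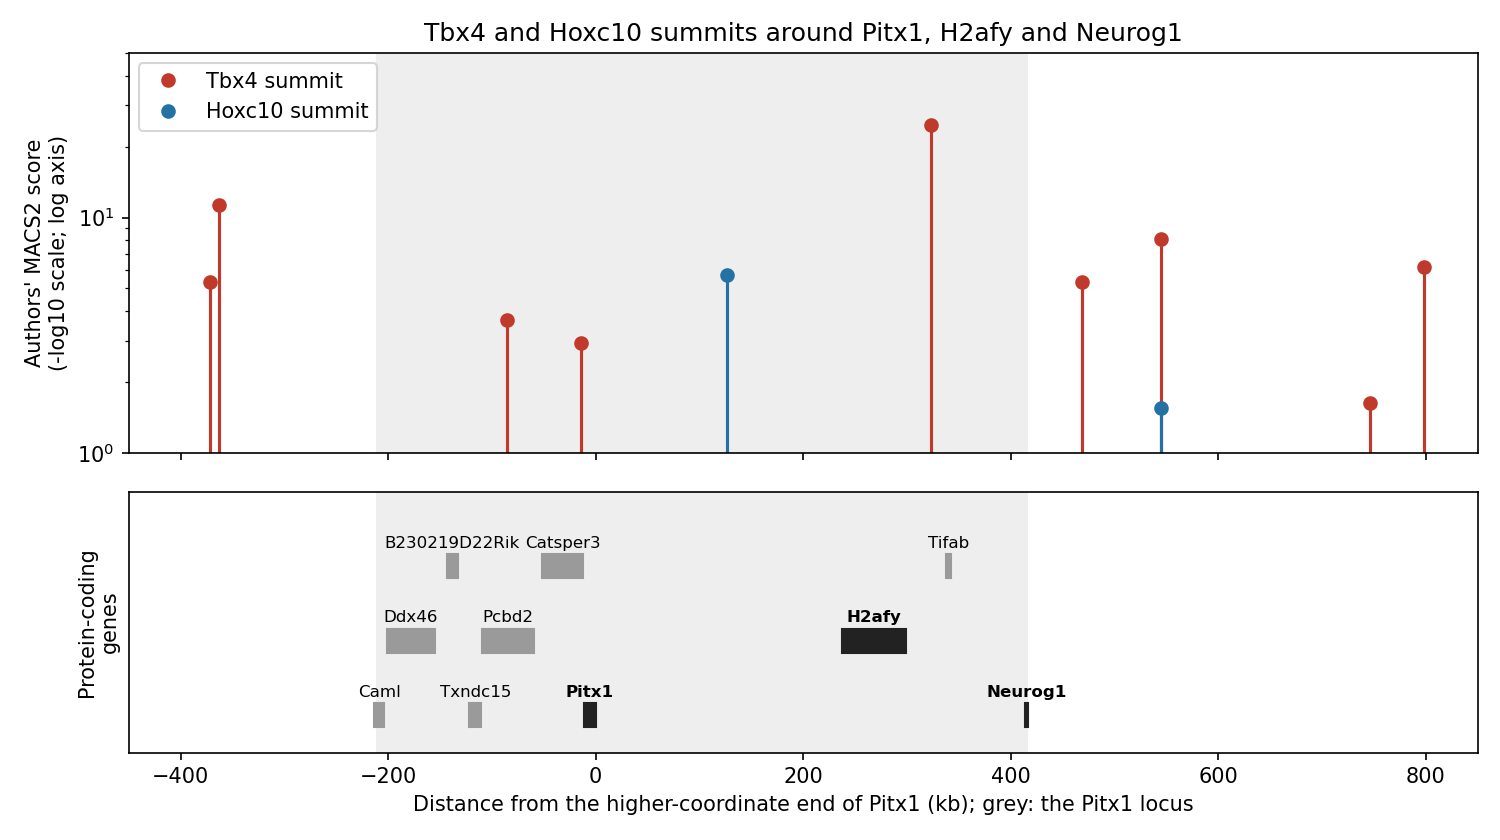
Map of the summits (upper panel, authors' score on a log axis) and of the protein-coding genes of the locus (lower panel, members in black), against the distance in kb from the higher-coordinate end of Pitx1. Within the grey locus the Tbx4 summit of score 24.83 stands between H2afy and Tifab, the Hoxc10 summit of score 5.69 stands alone between Pitx1 and H2afy, and no summits of both factors coincide.

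The highest site of the locus was a Tbx4 summit between H2afy and Tifab, at chr13:56159803, with a score of 24.83. It lay outside any annotated gene, 13.9 kb from the nearer end of Tifab, which encodes an adaptor protein of inflammatory signalling, and 24.2 kb from the nearer end of H2afy. It was 323.6 kb from Pitx1 and 90.7 kb from Neurog1. Only 3.79% of the Tbx4 list, 181 sites, scored as high or higher, and on chromosome 13 only 6 listed summits were higher, giving it rank 7 of 227. A Tbx4 site of this score or more lay in the domain of 252 of 21887 protein-coding genes, or 1.15%. A domain is the gene widened by 1 kb on both sides and then stretched until it meets the widened body of the next gene, over no more than 1 Mb. H2afy and Tifab were among these genes, sharing this 1 site, and Pitx1 was not, because H2afy stands between. The 1.15% is a share of single-gene domains, whereas 24.83 is the highest score of the whole locus. The share of stretches as long as the locus that hold such a site is not given here.

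The other Tbx4 sites of the locus were low, and both lay inside genes on the far side of Pitx1 from H2afy. The summit at chr13:55822379 scored 2.94, a value that 779 sites of the list carried and that 77.8% of the list reached or passed. It fell inside Catsper3, a subunit gene of the sperm calcium channel, 1669 bp from its higher-coordinate end. Pitx1 was 2665 bp away, which makes this the listed Tbx4 site nearest to that gene. The distance is to the lower-coordinate end of Pitx1, and whether this end is the start of the gene was not determined here. The third summit, at chr13:55750611, scored 3.67, which is also the median of the list, and 594 sites of the list had this same score. It lay inside Pcbd2, which encodes a dehydratase that also acts as a dimerization cofactor of HNF1, 74433 bp from Pitx1.

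Hoxc10 had 1 site in the locus, at chr13:55962569 with a score of 5.69. It stood in the 237.4 kb between Pitx1 and H2afy, 126.4 kb from Pitx1 and 111.1 kb from H2afy, and inside no annotated gene. Among the Hoxc10 sites 70.1% scored as high or higher, and the median of the list was 7.72. On chromosome 13 it ranked 56 of 83. The next listed Hoxc10 sites were far off, at 53993312 below it and at 56381460 above it.

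**Figure D2:**
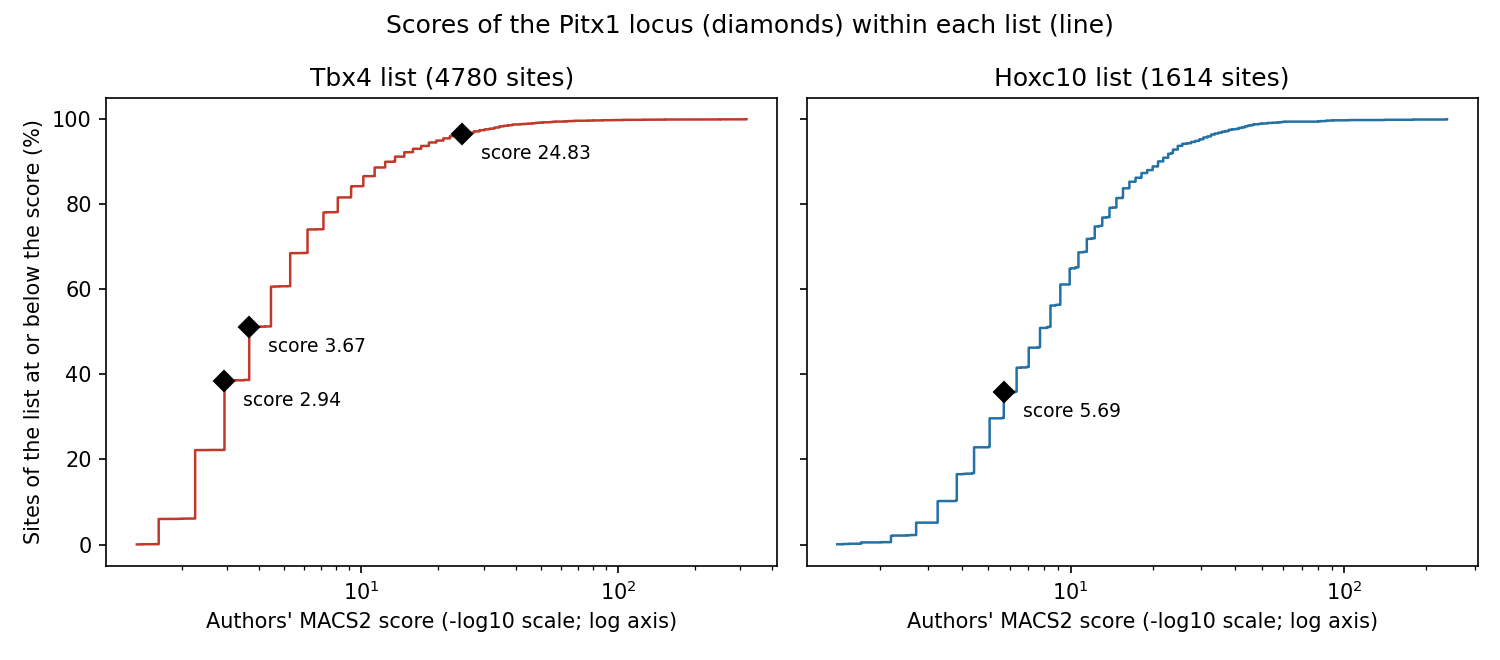
Share of each list (percent) at or below a given authors' score (−log10 scale, log axis) for Tbx4 on the left and Hoxc10 on the right, with the sites of the Pitx1 locus as diamonds. The Tbx4 site of 24.83 stands near the top of its list, whereas those of 3.67 and 2.94, and the Hoxc10 site of 5.69, sit in the middle or lower part.

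None of the member genes had a summit of either factor inside its body. This is the common case: even in the wider domain, 17.0% of all protein-coding genes had a Tbx4 site and 6.75% a Hoxc10 site. The nearest Tbx4 summits were 2665 bp from an end of Pitx1, 24177 bp from an end of H2afy and 52453 bp from an end of Neurog1. The nearest Hoxc10 summits were 126379, 111053 and 129280 bp from an end of the same genes, in this order. The summit nearest to Neurog1 was outside the locus, at chr13:56304633. A RefSeq promoter window (GRCm38.p6, from 250 bases before to 50 after the annotated start) was available for 8 of the 10 protein-coding genes of the locus, H2afy and Neurog1 among them, and 0 listed summits fell into these windows. Pitx1 was not matched in that table. The share of all promoter windows with a summit is not given here.

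Per Mb, the locus held 4.78 Tbx4 sites and 1.59 Hoxc10 sites, against 1.98 and 0.717 over the listed span of chromosome 13. These values rest on 3 sites and 1 site. The exact 95% Poisson intervals ran from 0.987 to 14.0 per Mb for Tbx4 and from 0.0404 to 8.88 per Mb for Hoxc10. They cover counting error only and take the sites as independent. Both hold the value of the chromosome, but the locus was chosen with earlier results known, so they decide nothing about it. When a window of the same shape was laid around each of the 21887 protein-coding genes, 21.4% of the windows held at least 3 Tbx4 sites and 22.5% held at least 1 Hoxc10 site. The reach to each side was that of the locus around Pitx1, so longer genes had longer windows. Neighbouring genes share much of these windows, so they are not independent, and the counts at Pitx1 are given beside them without a test.

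No Tbx4 site of the locus was co-bound with Hoxc10, taking summits within 200 bp as co-bound (0 of 3). Over the whole Tbx4 list 519 sites were co-bound, or 10.9%. Nor was the Hoxc10 site co-bound (0 of 1), against 518 sites or 32.1% of the Hoxc10 list. With 3 sites and 1 site, these counts cannot tell the locus from the lists. The exact Clopper-Pearson 95% interval for 0 of 3, which takes the sites as independent, reaches up to 70.8%. Among the 181 Tbx4 sites that scored at least 24.83, 33.7% were co-bound, so that most sites as high as the one between H2afy and Tifab also had no partner. Among the 577 Hoxc10 sites that scored at most 5.69, 26.3% were co-bound. Of 1942 protein-coding genes whose window of the same shape held at least 3 Tbx4 sites and 1 Hoxc10 site, 47.3% had no co-bound Tbx4 site in it.

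The Hoxc10 site lay between the Tbx4 summit in Catsper3 and that beyond H2afy. From the Hoxc10 summit to the nearest Tbx4 summit, that inside Catsper3, were 140.2 kb, with the Pitx1 gene between them. In the Hoxc10 list the median distance to the nearest Tbx4 site was 18.6 kb, and 26.5% of its sites had their nearest Tbx4 site as far away or farther. The Tbx4 summit between H2afy and Tifab was 197.2 kb from that Hoxc10 summit, with the whole of H2afy between them. In the Tbx4 list 57.6% of sites had their nearest Hoxc10 site as far away or farther, and the median distance was 297.2 kb. Between the Tbx4 summits of the locus lay 71.8 and 337.4 kb.

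The nearest co-bound pairs flanked the locus at a distance. On the low side the nearest pair lay 1.83 Mb from Pitx1, with Tbx4 at 53993325 (score 24.83) and Hoxc10 at 53993312 (score 16.39), 13 bp apart. On the high side it lay 4.17 Mb away, with Tbx4 at 60007773 (score 18.38) and Hoxc10 at 60007841 (score 38.93), 68 bp apart. The 6.01 Mb between these pairs held 21 Tbx4 and 4 Hoxc10 sites without a co-bound pair. Of all protein-coding genes 61.8% were at least as far as Pitx1 from the nearest co-bound site, and the median gene was 2.65 Mb from one.

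The running numbers that MACS2 wrote into the peak names show how many numbered peaks of the locus are missing from the lists used here. These numbers rise with position on every chromosome of both lists. Between the Tbx4 summits in Pcbd2 (number 9783) and Catsper3 (number 9788) 4 numbers are unlisted, all of them within 71.8 kb just outside Pitx1. Between the summit in Catsper3 and that beyond H2afy (number 9791) 2 more are unlisted, somewhere in the 337.4 kb that hold Pitx1, its gene-poor side and H2afy. Only 1 further number may lie inside or outside the low end of the locus, and none is missing between the summit beyond H2afy and the next listed one. So 3 of 9 or 10 numbered Tbx4 peaks of the locus were listed, at most 33.3%, against 10.6% of the numbers over the whole list and 11.7% on chromosome 13. This Tbx4 share rests on only 3 listed peaks. It was not tested against these values, so no difference from them is shown. For Hoxc10 the locus held 1 listed peak, number 837, and from 0 to 9 unlisted ones. The range is wide because 6 numbers are unlisted before number 837 and 3 after it, over stretches that reach beyond the locus. Over the whole Hoxc10 list 40.1% of the numbers were listed, and on chromosome 13 28.9%. The share possible in the locus runs from below to above both values, so it cannot be told apart from them. No source used here says how the listed peaks were selected, so an absent summit at Pitx1 is not shown to be an unbound place.

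Set beside other regulators of limb identity, Pitx1 was among the genes with few listed sites. Of 21 such genes, 14 had a Tbx4 site in their domain, against 17.0% of all protein-coding genes, and 11 had a Hoxc10 site, against 6.75%. The list was put together with earlier results of these data known, and its genes have domains of very different lengths, so these shares were not tested. In its domain of 248.6 kb Pitx1 had 0 Tbx4 sites and 1 Hoxc10 site. The medians of the list were 2 Tbx4 sites and 1 Hoxc10 site, and those of all protein-coding genes were 0 for both factors. By site counts, the gene of the list most like Pitx1 was Fgf10, a growth factor of limb bud outgrowth, also with 0 Tbx4 sites and 1 Hoxc10 site (score 11.45), in a domain of 946.3 kb. This likeness rests on the counts of 2 samples and on how domains are drawn. Within 200 kb, Pitx1 had 2 Tbx4 sites and Fgf10 had 0. The Hoxc10 site of Fgf10 lay inside that gene. That of Pitx1 was 126379 bp from it and also lay in the domain of H2afy. Another 5 genes differed from Pitx1 by 1 site, having none of either factor: the Hox genes Hoxc9, Hoxa10 and Hoxd10, whose domains are at most 16.6 kb long, the Hox cofactor gene Pbx2, and Islr2, which encodes a membrane protein with leucine-rich repeats.

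Pitx3, a paralogue of Pitx1 needed for the lens and for midbrain neurons, had 1 Tbx4 site (best score 11.3) and 0 Hoxc10 sites in a domain of 17.2 kb. That site was lower than the one between H2afy and Tifab.

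Among the remaining genes of the list, the T-box gene Tbx4, which acts downstream of Pitx1, had 6 Tbx4 sites and 3 Hoxc10 sites in a domain of 214.2 kb, a length near that of Pitx1. Its best Tbx4 score was 54.08, and it was the only 1 of the 21 genes whose domain held a Tbx4 site above 24.83. This depends on the length of the domains: within 200 kb of Hoxa10, whose domain is 13.5 kb long, a Tbx4 site scored 62.04. Tbx5, its forelimb counterpart, had 2 Tbx4 sites and 0 Hoxc10 sites. Isl1, a LIM-homeodomain gene needed to start the hindlimb bud, had 4 and 2. Gli3, a transcription factor of Hedgehog signalling, had 4 and 1, and Hand2, a factor of the posterior bud, had 7 and 2. The Iroquois genes Irx3 and Irx5 had 8 and 4, and 7 and 3. Nrip1, a nuclear receptor corepressor, had 4 and 1, and the zinc finger gene Sall4 had 2 and 0. The Hox genes Hoxc10 and Hoxc11 had 2 and 1 Tbx4 sites and 0 Hoxc10 sites each. Irx3 and Irx5 are neighbours, as are the Hoxc genes, and share sites. A co-bound Hoxc10 site lay in the domains of 6 of the 21 genes, and that of Pitx1 was not among them. The share of all protein-coding genes with such a site is not given here, so this count has no background.

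The count at Pitx1 depends on where its surroundings are drawn to end. When 200 kb on either side of each gene were counted, whatever genes stand there, Pitx1 had 2 Tbx4 sites (best score 3.67) and 1 Hoxc10 site. In such windows 19 of the 21 genes had a Tbx4 site and 13 a Hoxc10 site, with medians of 3 and 1. Both factors were present in the windows of 12 genes, Pitx1 among them, and 6 of these windows held a co-bound pair, not that of Pitx1. The windows of Hoxc9, Hoxc10 and Hoxc11, which overlap, are among these 6. Shares of all protein-coding genes in such windows are not given here, so these counts have no background. The Tbx4 site of 24.83 is outside this window of Pitx1, 323.6 kb from the gene.

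**Figure D3:**
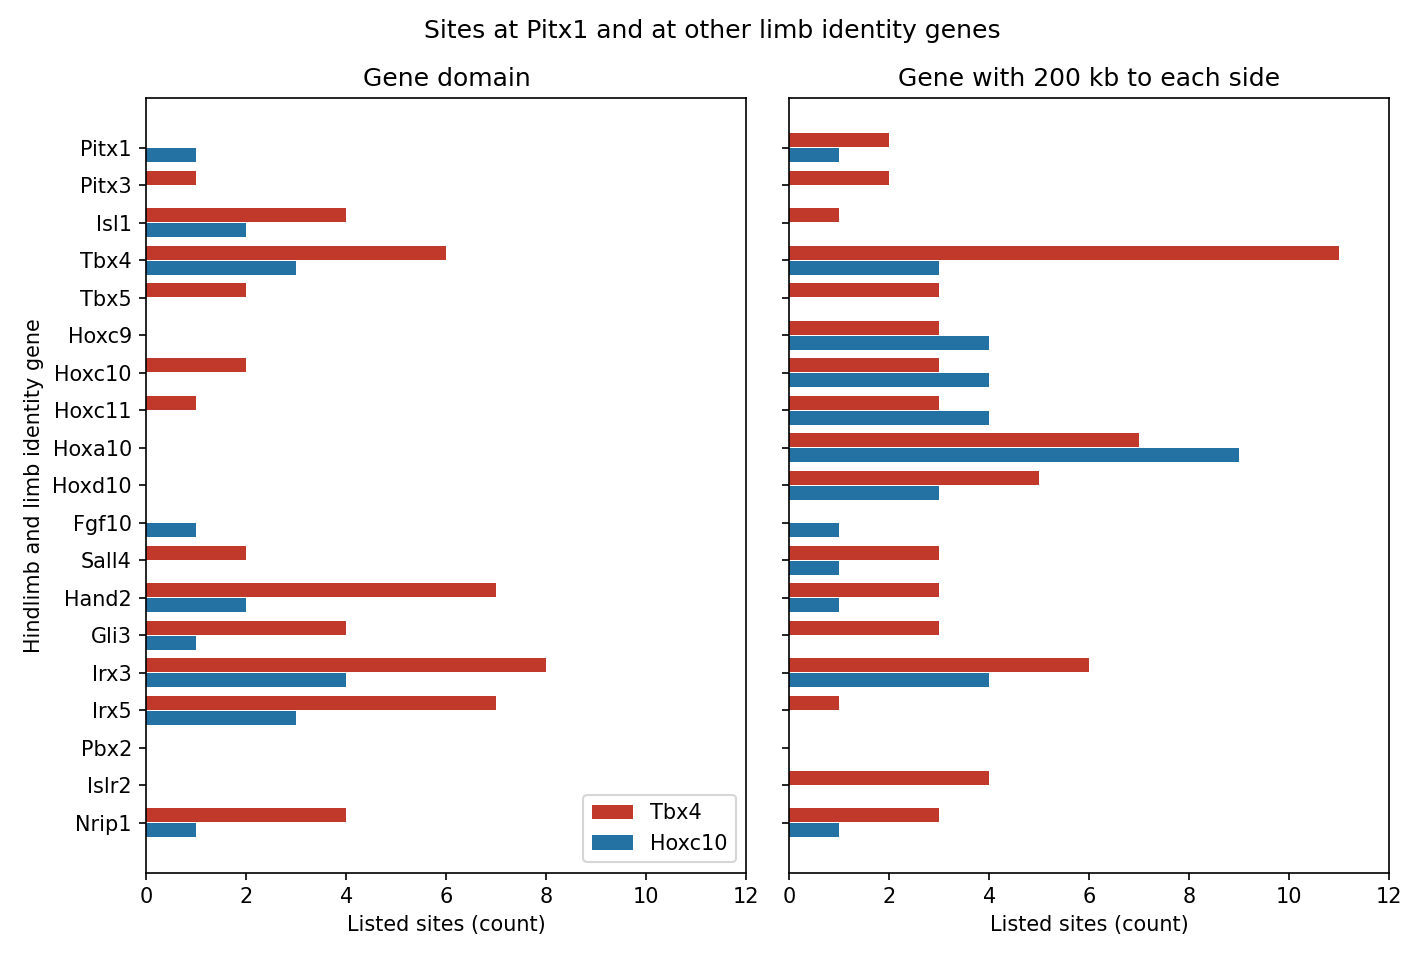
Number of listed Tbx4 sites (red, above) and Hoxc10 sites (blue, below) for 19 of the 21 genes of the limb identity list, Pitx1 at the top, in the gene's domain (left) and in the gene with 200 kb to each side (right), as counts with no error bars since each factor has 1 sample. Pitx1 has 0 Tbx4 sites and 1 Hoxc10 site on the left, and 2 and 1 on the right.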

How the data were processed

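ChIP-seq summit lists of 2 samples, Tbx4 and Hoxc10 (Abcam), were used. Bowtie2 2.2.6, MACS2 2.1.1.20160309 and HOMER were run on mm10, per the submitters' processing notes. The score in the deposited lists is the authors' −log10 value per summit. The selection of summits, any control library and pooling are not stated in those sources. The name of the Hoxc10 list may mean that only Abcam sites near Santa Cruz peaks were kept. Depth is unknown.

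Gene positions came from a RefSeq table of GRCm38.p6, the assembly of mm10, with 21887 protein-coding genes. No genome sequence was used, so the planned motif search around the summits was not run and no sequences of the sites are shown. Sites, distances, domains and co-bound pairs were counted in Python 3.11.15 with pandas 2.3.3, and intervals computed with scipy 1.17.1. Pair finding and site counting were tested on simulated data. No test was made, because each factor has 1 sample.

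Every site of the locus is given, with all protein-coding genes in it or nearest to its sites and a list of 21 limb identity genes, of which 2 are counted but not reported here by name. The genes most like Pitx1 were those with the smallest summed difference in site counts. The members and lists were chosen with earlier results of these data known. Alternatives were other locus ends, pair distances of 50 to 1000 bp, the sites at or above the median score of their list (61.3% of Tbx4 and 53.5% of Hoxc10 sites, because of ties) and other ways to give sites to genes.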

Additional observations from a re-analysis of the deposited data

How the results depend on the processing

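Each factor has 1 sample, so no spread between samples is known, and no replicate could be left out. No paired analysis was possible because each factor has 1 sample and no test was made. The locus held 3 Tbx4 sites, but 5 when it started 500 kb outside Pitx1 and 5 when it ended 200 kb beyond Neurog1. The Hoxc10 count of 1 was 2 with the end beyond Neurog1, with 3 unlisted peak numbers in place of 0 between listed sites, and 0 among the sites at or above the median score of the list. Among the 21 limb identity genes, 11 had a Hoxc10 site, and 7 when sites went to the gene with the nearest end. There Pitx1 had 0 Hoxc10 sites, its site going to H2afy. The rule for the locus also names the far end of H2afy, and this alternative was run after seeing the data. With that end, 2 Tbx4 sites (2.94 and 3.67) and 1 Hoxc10 site were left, without the summit of 24.83. The count of co-bound pairs was 0 at 50, 100, 500 and 1000 bp and among the sites at or above the median score of each list. The other counts of sites in the locus, of unlisted numbers there and of list genes with a site stayed within 1.5 times their value. Counts at single genes of the list did not: 51 of 126 moved further, such as Irx5, with 1 Tbx4 site in place of 7, and Hoxa10, with 7 in place of 0, when 200 kb on either side were counted.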

Other observations

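The sites of both factors came closest to each other outside the locus, on the side of Neurog1 but far from that gene. At chr13:56380949 a Tbx4 summit scored 8.12, and at chr13:56381460 a Hoxc10 summit scored 1.55, 511 bp apart and thus not co-bound at 200 bp. Only 2 sites of the Hoxc10 list scored lower. Both lay outside protein-coding genes, 57.0 and 56.5 kb from Slc25a48, which encodes a mitochondrial carrier, and 128.8 and 129.3 kb from Neurog1. A Tbx4 summit at chr13:56304633 scored 5.3, 7.8 kb from the chemokine gene Cxcl14. On the other side, the nearest Tbx4 summits beyond the locus lay in Prr7 at 55472856 and 55464705, with scores of 11.3 and 5.3, 352188 and 360339 bp from Pitx1.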
